A study of Mus musculus with 6 samples.

Results

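Immediate early genes are the first genes that a cell switches on after a growth factor, cytokine or stress signal, without waiting for new protein. The 10 genes described here are Fos, Fosb, Jun, Junb, Jund, Egr1, Ier2, Ier3, Klf6 and Btg2. They were chosen by name from 21512 genes in the deposited table, and all 10 were in it. Bulk RNA-seq of whole liver came from 6 mice of the C57BL/6J strain. All 6 mice received a high-fat diet with carbon tetrachloride (HFD/CCl4) over 12 weeks, which produces steatohepatitis with fibrosis (MASH), so the comparison holds no healthy liver. During those weeks 3 mice were given an antibody against PD-1, an inhibitory receptor of activated T cells, and 3 were given an isotype control antibody, every 3 days. In GEO's treatment entry, replicates 2 and 3 of the anti-PD-1 group carry another number after "PD", while their titles name PD-1, and the titles were followed. The labels give neither the age or sex of the mice nor the time of day, feeding state or interval since the last injection at collection, and immediate early RNA can shift within minutes. The labels do not say whether mice shared a cage or a day. The p-values set the group difference against the spread of these 6 samples within their groups, and cannot allow for a shared cage or day.

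Fos and Jun proteins form AP-1, a dimer held together by a leucine zipper. Fos family members must pair with a Jun protein to bind DNA, whereas Jun family members also pair with each other. MAP kinases act on both sides, through the factors SRF and TCF at the Fos and Egr1 promoters and through phosphorylation of Jun itself. In liver, Jun and Fos are known for their fast induction after partial hepatectomy, and Jun is needed for normal hepatocyte proliferation. Egr1 and Klf6 are zinc finger factors, and Klf6 is known as a gene of activated hepatic stellate cells. The label "transcription factors" does not cover all 10 genes: Ier3 is a regulator of cell survival without a DNA-binding domain, and Btg2 is an antiproliferative protein, induced by p53, that recruits the CCR4-NOT deadenylase.

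The promoters of Btg2, Junb, Jun, Fos and Klf6 are shown because they hold the letter matches described here and belong to genes with high (Btg2) and low (Klf6) fold changes. Each is the 250 bases before the gene's start from RefSeq (build GRCm38.p6, an older build than the submitters name), 5′ to 3′ on the gene's strand. Of the 10 genes, 8 had an entry in the RefSeq table. Egr1 and Ier2 had no usable entry, so the search gives no result for their promoters. Capitals mark the letters TGACG, the core of a cyclic AMP response element, and TGACNTCA, which takes in the full element TGACGTCA. Both were searched on both strands, and TGACGTCA holds a match to each. The windows lie at chr1:134079156-134079405 (minus strand), chr8:84978749-84978998 (minus strand), chr4:95052223-95052472 (minus strand), chr12:85473640-85473889 (plus strand) and chr13:5861239-5861488 (plus strand).
Btg2: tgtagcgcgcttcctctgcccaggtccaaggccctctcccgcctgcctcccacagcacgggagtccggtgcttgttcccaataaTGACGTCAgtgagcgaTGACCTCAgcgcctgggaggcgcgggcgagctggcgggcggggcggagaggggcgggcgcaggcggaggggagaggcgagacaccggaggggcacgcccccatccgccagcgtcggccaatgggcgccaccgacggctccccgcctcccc
Junb: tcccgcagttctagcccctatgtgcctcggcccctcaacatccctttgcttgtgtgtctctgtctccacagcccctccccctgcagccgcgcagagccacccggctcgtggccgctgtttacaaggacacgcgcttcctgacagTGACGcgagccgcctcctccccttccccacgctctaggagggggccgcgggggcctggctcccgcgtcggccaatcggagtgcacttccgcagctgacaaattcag
Jun: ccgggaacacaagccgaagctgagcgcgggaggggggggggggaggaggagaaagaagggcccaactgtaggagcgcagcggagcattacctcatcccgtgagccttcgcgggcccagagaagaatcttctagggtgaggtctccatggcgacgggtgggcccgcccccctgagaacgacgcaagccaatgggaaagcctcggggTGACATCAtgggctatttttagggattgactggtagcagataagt
Fos: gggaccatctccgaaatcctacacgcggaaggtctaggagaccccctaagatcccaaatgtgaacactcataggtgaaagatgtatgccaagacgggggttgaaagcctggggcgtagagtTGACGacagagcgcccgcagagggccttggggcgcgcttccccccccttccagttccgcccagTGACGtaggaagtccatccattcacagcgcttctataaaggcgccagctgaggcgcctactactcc
Klf6: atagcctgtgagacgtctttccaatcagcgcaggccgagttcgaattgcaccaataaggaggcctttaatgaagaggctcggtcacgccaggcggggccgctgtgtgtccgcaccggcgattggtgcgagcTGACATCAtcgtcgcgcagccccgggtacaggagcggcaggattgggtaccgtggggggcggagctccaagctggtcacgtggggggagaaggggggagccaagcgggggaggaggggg

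Btg2 held the full TGACGTCA, which starts 166 bases before the gene's start, and TGACCTCA 150 bases before it. TGACGTCA was present in 1.6% of 27025 promoter windows of the same length. Jun and Klf6 each held TGACATCA, 45 and 119 bases before their starts, and TGACNTCA in any form was present in 7.6% of the windows. Junb held TGACG 106 bases before its start and Fos held it 129 and 66 bases before its start. TGACG was present in 17.9% of all windows, and also in that of Fosb. None of the 8 windows held the short AP-1 form TGANTCA (6.9% of all windows), the EGR1 letters GCGTGGGCG (0.54%) or an SRF box (1.4%). The longer TGACNTCA was counted separately, so a window without TGANTCA need not lack an AP-1 site. Such matches describe letters and do not show binding, and a window without a match says nothing of a factor bound elsewhere. The Jun and Klf6 windows share the same 8 letters, and the values of these genes are given below.

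The libraries held 15528364 to 20779319 recovered reads. Hepatocyte markers were the highest of the marker lists (8 genes, summed 68700 to 84500 after anti-PD-1 and 70300 to 90800 in isotype controls), as the label liver implies. Anti-PD-1 replicate 1 stood apart on the leukocyte markers, and isotype control replicate 1 on some of the immediate early genes, Junb and Btg2 foremost, as given beside the results they touch. Values are CPM, read counts scaled to a common library total with a trimmed-mean (TMM) factor, and log2 fold changes are anti-PD-1 over isotype control on log2(CPM + 0.5).

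No member passed the test: by limma with Benjamini-Hochberg adjustment over 13990 tested genes, 0 of 10 members and 0.00715% of all tested genes (1 gene) had an adjusted p under 0.05. All 10 members passed the filter of 1 CPM in at least 3 libraries. Without adjustment, 4 members were higher after anti-PD-1 at p under 0.05 (Junb, Jund, Ier2 and Btg2), against 5.04% of all genes, and 1 was lower (Egr1), against 6.24%. By edgeR on recovered reads 0 members and 0 genes in all passed, and 4 members had an unadjusted p under 0.05, against 11.6% of all genes. DESeq2 called 0 members, against 1.15% of genes higher and 0.835% lower, and 5 members had an unadjusted p under 0.05, against 11.4%. With the replicate number as a block, limma called 0 members, against 0.193% of genes higher and 0.0929% lower. In that fit Fos joined the members with an unadjusted limma p under 0.05 (adjusted p = 0.266) and Egr1 left them by a small margin (adjusted p = 0.33), so 5 members were higher and 0 lower, against 15.1% of all genes in either direction. Without isotype control replicate 1, which stood lowest for 5 members, 4 members were higher and 0 lower at an unadjusted limma p under 0.05, against 3.86% and 4.35% of all genes. The log2 fold change was positive for 9 members and negative for 1, with a median of 0.56, beside a median of 0 over all tested genes. Junb, Jund, Ier2 and Btg2 had every anti-PD-1 value above every control value, as did 7.13% of all genes, and 0 members had every value below, against 9.98% of all genes. The members were chosen with earlier results of these data known, so these shares describe the genes and are no test of the group. In whole liver, fewer cells of a type and less RNA per cell cannot be told apart.

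**Figure D1:**
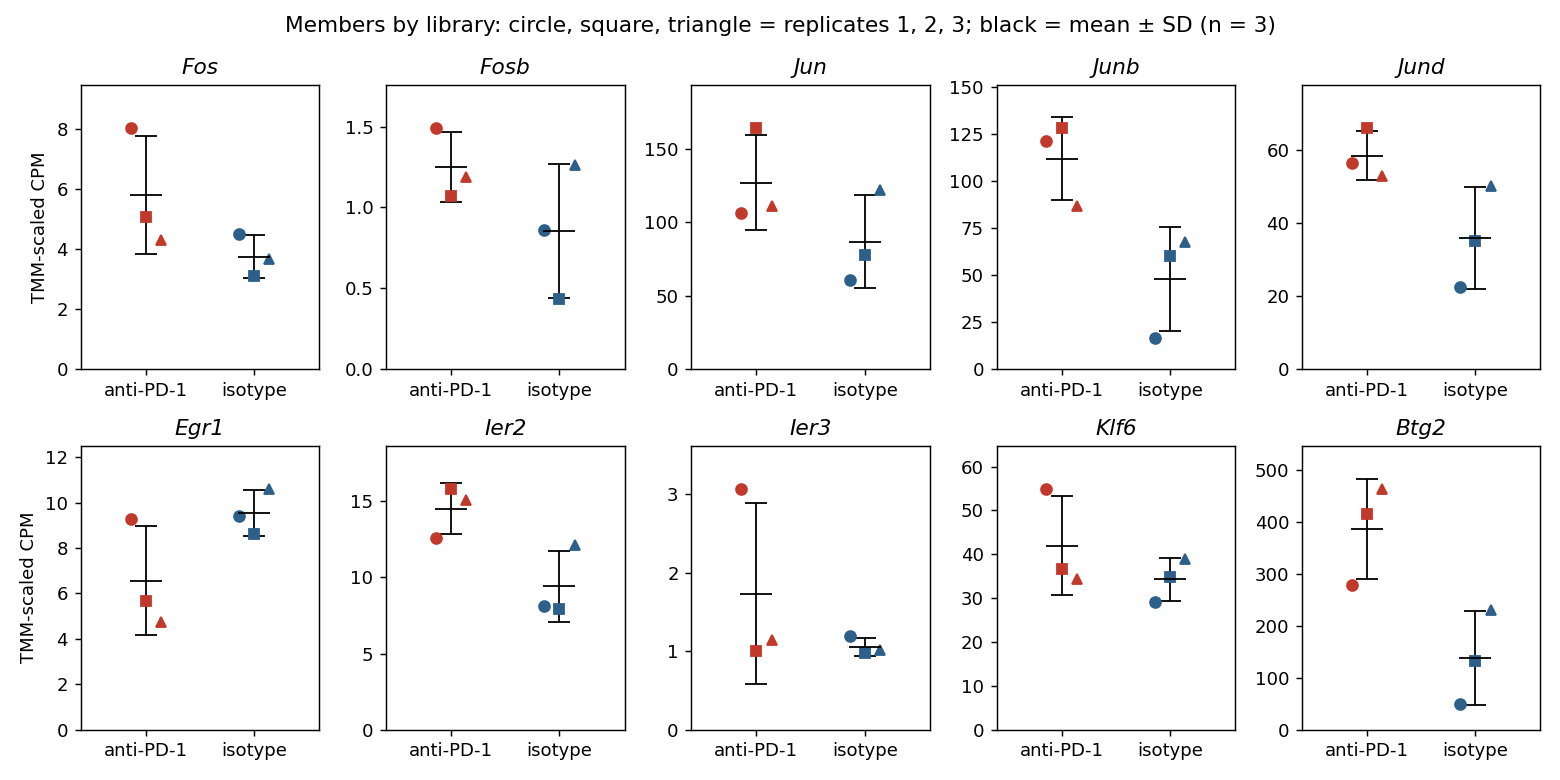
CPM of the 10 genes in each library (y axes start at 0), with anti-PD-1 mice left and isotype control mice right, replicates 1 to 3 as circle, square and triangle, and the mean ± SD in black (n = 3). Junb, Jund, Ier2 and Btg2 have no overlap between the groups, and Egr1 is the only gene of the 10 with a lower anti-PD-1 mean.

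Among the Fos family, Fos had 8.02, 5.06 and 4.29 CPM in anti-PD-1 livers, against 4.48, 3.08 and 3.67 CPM in isotype control livers. The groups overlapped, since anti-PD-1 replicate 3 lay under isotype control replicate 1, while each anti-PD-1 library lay above the control of the same number. Its log2 fold change was 0.54 ± 0.25 (SE, 95% interval -0.05 to 1.12, limma adjusted p = 0.476). Leaving out anti-PD-1 replicate 1 gave 0.30. Fosb, which has the same bZIP design as Fos and is better known from neurons, was scarce, at 1.49, 1.07 and 1.19 CPM after anti-PD-1, against 0.863, 0.433 and 1.26 CPM in controls. Those values rest on 8 to 31 reads, and 8 reads have an exact Poisson interval of 3.45 to 15.8 reads, which covers counting error only. A difference in Fosb was not detectable at this depth (log2 fold change 0.41, 95% interval -0.29 to 1.11, and 0.17 when isotype control replicate 2 was left out).

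In the Jun family, Jun, the classic AP-1 subunit and substrate of the JNK kinases, had 106, 164 and 111 CPM in anti-PD-1 livers, against 60.9, 77.5 and 122 CPM in controls. Isotype control replicate 3 lay above anti-PD-1 replicates 1 and 3. The log2 fold change of Jun was 0.58 ± 0.27 (SE, 95% interval -0.04 to 1.19, limma adjusted p = 0.466). For Jun it was 0.36 with isotype control replicate 1 left out and 0.38 with anti-PD-1 replicate 2 left out. Junb, a Jun protein often less active than Jun and also known as a brake on proliferation, had 121, 128 and 86.5 CPM after anti-PD-1, against 16.4, 60.2 and 67.6 CPM in controls. Its groups did not overlap, and isotype control replicate 1 was far under the other controls. For Junb the log2 fold change was 1.42 ± 0.49 (SE, 95% interval 0.30 to 2.55, limma adjusted p = 0.349), and 0.78 without isotype control replicate 1 (adjusted p = 0.407). Jund, the Jun gene with the steadiest expression in resting cells, had 56.5, 65.9 and 52.9 CPM after anti-PD-1, against 22.3, 34.9 and 50.1 CPM in controls. The groups of Jund were separate by a narrow margin, between anti-PD-1 replicate 3 and isotype control replicate 3. Its log2 fold change was 0.77 ± 0.26 (SE, limma adjusted p = 0.348) and was 0.47 without isotype control replicate 1.

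Among the other nuclear factors, Egr1, a zinc finger activator induced by growth factors and injury, had 9.27, 5.66 and 4.76 CPM in anti-PD-1 livers, against 9.39, 8.6 and 10.6 CPM in controls. Anti-PD-1 replicate 1 lay within the control range and the other 2 anti-PD-1 libraries lay under it. Egr1 had a log2 fold change of -0.55 ± 0.24 (SE, 95% interval -1.11 to 0, limma adjusted p = 0.442). Leaving out anti-PD-1 replicate 1 gave -0.81 (limma adjusted p = 0.109), and leaving out anti-PD-1 replicate 3 gave -0.37. Ier2, a small nuclear protein that takes part in transcriptional control, had 12.6, 15.8 and 15.1 CPM after anti-PD-1, against 8.15, 7.95 and 12.1 CPM in controls. The lowest anti-PD-1 value of Ier2 was just above the highest control value. Its log2 fold change was 0.62 ± 0.19 (SE, limma adjusted p = 0.311). Klf6 had 54.9, 36.6 and 34.4 CPM after anti-PD-1, against 29.2, 34.8 and 38.9 CPM in controls. Only anti-PD-1 replicate 1 lay above the control range of Klf6. Its log2 fold change was 0.26 ± 0.19 (SE, limma adjusted p = 0.639). It was 0.06 when that library was left out, and -0.05 when isotype control replicate 1 was left out too.

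Egr1 and Fos, which are often induced together, stood in different proportions in the groups. The ratio of Egr1 to Fos CPM was 1.16, 1.12 and 1.11 in anti-PD-1 replicates 1 to 3, against 2.10, 2.79 and 2.89 in isotype control replicates 1 to 3. The ratio was close among the 3 anti-PD-1 livers although their Fos values ran from 4.29 to 8.02 CPM. In those libraries it rests on 76 to 167 reads for Fos and 85 to 193 reads for Egr1. Counting error of the ratio was not computed, so its closeness is not taken as a trait of the livers. A ratio within a library does not depend on how libraries are scaled, and it shows unequal difference without saying which gene moved. The pair was picked after its values were seen, so no test is given.

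**Figure D2:**
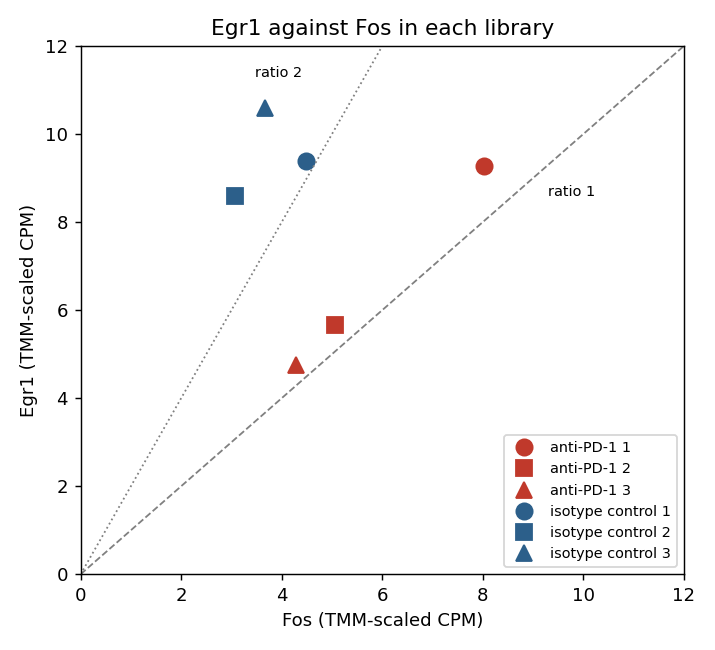
Egr1 CPM (y axis) against Fos CPM (x axis) in each of the 6 libraries, with lines at ratios of 1 and 2. The 3 anti-PD-1 livers lie near the line of ratio 1 (1.11 to 1.16) and the 3 isotype control livers above the line of ratio 2 (2.10 to 2.89).

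Btg2 and Ier3, which do not bind DNA themselves, come last. Btg2 had the largest fold change of the 10 genes. Btg2 had 278, 415 and 463 CPM in anti-PD-1 livers, against 50.1, 133 and 230 CPM in isotype control livers. The groups did not overlap, and the controls differed among themselves 4.58-fold from lowest to highest, against 1.66-fold among anti-PD-1 livers. For Btg2 the log2 fold change was 1.70 ± 0.49 (SE, 95% interval 0.56 to 2.84), with a limma adjusted p of 0.291. It was 1.11 without isotype control replicate 1 (adjusted p = 0.461), and the adjusted p was 0.0846 with the replicate block. Ier3 had 3.07, 0.999 and 1.14 CPM after anti-PD-1, against 1.19, 0.974 and 1.01 CPM in controls. Anti-PD-1 replicate 1 alone stood above the other 5 libraries. The log2 fold change of Ier3 was 0.41 ± 0.36 (SE, limma adjusted p = 0.698), and 0.01 without that library.

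**Figure D3:**
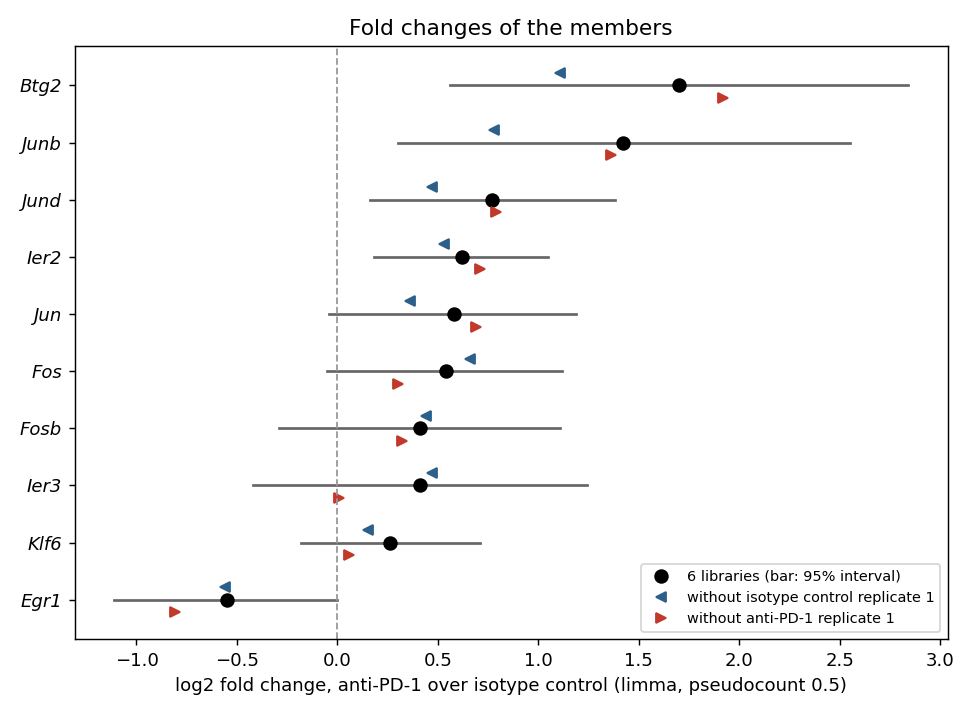
Log2 fold change of each gene, anti-PD-1 over isotype control (limma on log2(CPM + 0.5)), with its 95% interval from 6 libraries (black) and the value without isotype control replicate 1 (blue) or without anti-PD-1 replicate 1 (red). Btg2 (1.70) and Junb (1.42) lie highest and move to 1.11 and 0.78 without that control, while Ier3 moves to 0.01 without that anti-PD-1 library.

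Per kilobase of transcript, which allows levels to be compared between genes, Btg2 was the most abundant member in both groups, at 140 ± 34.9 CPM per kilobase after anti-PD-1 and 50.1 ± 32.7 in controls (SD, n = 3 each). The Jun genes came next: Junb was at 61.7 ± 12.2 and 26.6 ± 15.3, Jun at 39.8 ± 10 and 27.2 ± 9.90, and Jund at 35.0 ± 4.02 and 21.4 ± 8.34 CPM per kilobase. The spreads of these 3 genes overlapped in controls, so their order there does not exceed the spread. After anti-PD-1 the values of Jun overlapped those of both Junb and Jund. In anti-PD-1 replicate 1 Jund was slightly above Jun (33.9 against 33.3 CPM per kilobase). Klf6 (9.93 ± 2.66 and 8.13 ± 1.15) and Ier2 (9.52 ± 1.11 and 6.17 ± 1.52) were nearly equal after anti-PD-1. Fos, at 2.75 ± 0.934 and 1.78 ± 0.332 CPM per kilobase, Ier3 (1.54 ± 1.03 and 0.933 ± 0.102) and Egr1 (1.46 ± 0.532 and 2.13 ± 0.225) formed a low group. Fosb was the least abundant, at 0.330 ± 0.0576 and 0.225 ± 0.109 CPM per kilobase. Fos RNA per kilobase was thus below that of each Jun gene in every library.

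Among the 10 members, Jun, Junb, Jund and Ier2 have a single exon each in the GENCODE M21 annotation, and these 4 transcripts measure 1522 to 3189 bases. Junb, Jund and Ier2 all lie on chromosome 8, where 17 protein-coding genes separate Ier2 from Junb. No stretch of 50 bases in the 10 transcripts also occurred in a transcript of another gene. Jun and Jund overlap an antisense gene in an exon (Junos and Gm11175), and whether counting used strand is not given in the sources used here. Junos was listed at 0.103 to 0.192 CPM after anti-PD-1 and 0.162 to 0.402 CPM in controls, small beside Jun.

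The members did not vary as 1 block across the mice. Isotype control replicate 1 was the lowest of the 6 libraries for Jun, Junb, Jund, Klf6 and Btg2, whereas 19.2% of all tested genes had their lowest value there. Isotype control replicate 2 was lowest for Fos, Fosb, Ier2 and Ier3, against 14% of all genes, and anti-PD-1 replicate 3 for Egr1, against 16.3%. At the upper end, anti-PD-1 replicate 1 was highest for Fos, Fosb, Ier3 and Klf6, against 17.7% of all genes, and anti-PD-1 replicate 2 for Jun, Junb, Jund and Ier2, against 19.1%. Averaged over the 10 genes, the log2 deviation from each gene's own mean was 0.47, 0.31 and 0.15 in anti-PD-1 replicates 1 to 3, against -0.66, -0.35 and 0.08 in isotype control replicates 1 to 3. The medians over the same genes were 0.41, 0.28 and 0.14 in anti-PD-1 replicates 1 to 3, against -0.41, -0.37 and 0.10 in isotype control replicates 1 to 3, so by the median isotype control replicates 1 and 2 were nearly level. Isotype control replicate 3 lay close to anti-PD-1 replicate 3.

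The leukocyte markers of anti-PD-1 replicate 1 are given beside Fos, Fosb, Ier3 and Klf6, which were highest in that library. The 7 monocyte markers, led by Lyz2, summed to 863, 149 and 234 CPM in anti-PD-1 replicates 1 to 3, against 135 to 268 CPM in controls. The 6 neutrophil markers present in the table summed to 40.3, 7.12 and 11.4 CPM, against 8.70 to 9.39 CPM in controls. The 9 T and NK cell markers summed to 45.4, 7.79 and 9.62 CPM, against 3.79 to 4.69 CPM. No marker of these 3 lists was at 0 in any library. Of the T and NK cell markers only 3 passed the filter: Cd8a, Cd3e and Gzmb. DESeq2 called Cd8a and Cd3e higher (adjusted p = 0.000885 and 0.0213), against 1.15% of all genes, and limma did not. No control value of these 3 genes reached 1 CPM, whereas all their anti-PD-1 values did. They were thus tested because of their high anti-PD-1 values and could hardly come out lower. Klrb1c and Ncr1, picked from the T and NK cell list after their values were seen, had lower means after anti-PD-1. All other markers of that list had higher means. Klrb1c averaged 0.432 ± 0.203 CPM, against 0.784 ± 0.259 CPM in controls. Ncr1 averaged 0.254 ± 0.189 CPM, against 0.475 ± 0.109 CPM (SD, n = 3 each). Neither passed the filter, and the groups of both overlapped. In anti-PD-1 replicate 3 Ncr1 (0.103 CPM) lay under 3 reads, so no difference in NK cells can be read from them. Kupffer cell markers (7 genes) summed to 304 to 404 CPM after anti-PD-1, against 311 to 565 CPM in controls, with the highest sum in isotype control replicate 1. Of these 7, 0 passed by limma and 5 were lower at an unadjusted p under 0.05, against 6.24% of all genes. DESeq2 called 3 lower, against 0.835% of all genes, and the median log2 fold change was -1.59. Timd4, counted as lower in both tests, reached 1 CPM in controls only (1.73 to 3.88 CPM), so the filter favoured a lower value for it. Cd5l (mean 117 CPM after anti-PD-1 and 130 CPM in controls, log2 fold change -0.02) and C6 (192 and 172 CPM, 0.08) differed little. These abundant genes make up most of the sums, which hide the lower markers. Cd163, a scavenger receptor of resident macrophages with the smallest p of the list, had 1.44, 0.2 and 0.31 CPM after anti-PD-1. Its control values were 17.3, 6.6 and 6.38 CPM (limma adjusted p = 0.129, DESeq2 3.45e-06). The marker sums of B and plasma cells were 5.19 to 24.8 CPM after anti-PD-1 and 4.93 to 13.7 CPM in controls, those of stellate cells and fibroblasts 605 to 805 and 553 to 678 CPM, and those of cholangiocytes 78.2 to 136 and 93.9 to 236 CPM. Endothelial markers (7 genes) summed to 359 to 410 CPM, against 398 to 401 CPM. The part of these cells in the members' values was not tested. PD-1's own gene, Pdcd1, was under the filter, at 5.43, 0 and 0.621 CPM after anti-PD-1, against 0.378, 0.271 and 0.101 CPM in controls.

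Other AP-1 partners were read next. Of 15 bZIP genes, 11 were tested and 0 passed by limma, with 4 higher and 0 lower at an unadjusted p under 0.05. Over all tested genes 5.04% were higher and 6.24% lower at that p, a share that applies to the lists below too. Every anti-PD-1 value lay above every control value for 7.13% of all genes, and below for 9.98%. Fosl2, the Fos family gene known as Fra-2, had 146, 179 and 190 CPM in anti-PD-1 livers, against 17.6, 82.5 and 79.3 CPM in controls. Its groups did not overlap, and isotype control replicate 1 was again far below the rest. Its log2 fold change was 1.80 ± 0.53 (SE, limma adjusted p = 0.303), and 1.07 without that library (adjusted p = 0.283). Atf3, a stress-induced repressor that pairs with Jun proteins, had 13.8, 22.4 and 15.0 CPM, against 7.66, 5.25 and 8.6 CPM. Its groups did not overlap, and DESeq2 called Atf3 (adjusted p = 0.00107) and limma did not (0.218). Jdp2, a Jun dimerisation protein, had 4.18, 1.86 and 1.86 CPM, against 0.324, 0.758 and 1.26 CPM (limma adjusted p = 0.307). The median log2 fold change of the 11 tested partners was 0.09, and 0.16 without isotype control replicate 1.

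Among 12 tested other early transcription factors, 11 had a positive log2 fold change and 0 passed by limma or DESeq2, with 4 higher at an unadjusted p under 0.05 and a median of 0.66. The median was 0.39 without isotype control replicate 1, which held the lowest value for 7 of the 12. Klf4, a zinc finger factor of endothelium and macrophages among other cells, had 4.18, 3.80 and 5.79 CPM after anti-PD-1, against 2.81, 2.65 and 2.56 CPM in controls (log2 fold change 0.66 ± 0.20 SE, limma adjusted p = 0.311). The orphan nuclear receptor Nr4a3 had 3.84, 3.06 and 4.97 CPM, against 0.432, 2.22 and 2.31 CPM (limma adjusted p = 0.38). Nr4a2 had 4.76, 2.46 and 2.79 CPM, against 0.108, 2.43 and 1.16 CPM (0.414), so the groups of all 3 genes were separate, that of Nr4a2 barely. Klf4, Nr4a3 and Nr4a2 were named for the smallest p of their list, which favours separate groups. Nr4a1, the best known receptor of that family, overlapped fully, at 20.2, 29.2 and 22.8 CPM against 10.7, 27.6 and 33.2 CPM. Myc, which drives growth and proliferation, also overlapped, at 59.1, 100 and 85.0 CPM after anti-PD-1 and 9.50, 60.8 and 89.1 CPM in controls.

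Of 21 tested other immediate early and delayed primary response genes, 0 passed by limma, 6 were higher and 1 lower at an unadjusted p under 0.05, and the median log2 fold change was 0.19. Sik1, a kinase induced by cyclic AMP, had 223, 327 and 314 CPM in anti-PD-1 livers, against 69.4, 122 and 154 CPM in controls. Its log2 fold change was 1.37 ± 0.29 (SE, limma adjusted p = 0.232), and DESeq2 called it (adjusted p = 0.000462). Zfp36l1, which promotes decay of AU-rich mRNAs, had 218, 290 and 327 CPM, against 148, 138 and 204 CPM (limma adjusted p = 0.267, DESeq2 0.0124). Its relative Zfp36 overlapped, at 78.7, 75.3 and 87.7 CPM against 52.6, 85.5 and 85.0 CPM. Ccn1, a matricellular protein and a target of the YAP pathway, went the other way, at 6.34, 4.33 and 1.97 CPM after anti-PD-1, against 11.5, 17.9 and 11.8 CPM in controls. The log2 fold change of Ccn1 was -1.69 ± 0.36 (SE, limma adjusted p = 0.232, DESeq2 0.00527). Isotype control replicate 1 was lowest for 12 of these 21 genes, among them the clock gene Per1, which was picked for its values, at 80.0, 122 and 103 CPM after anti-PD-1 and 16.6, 69.4 and 57.2 CPM in controls.

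**Figure D4:**
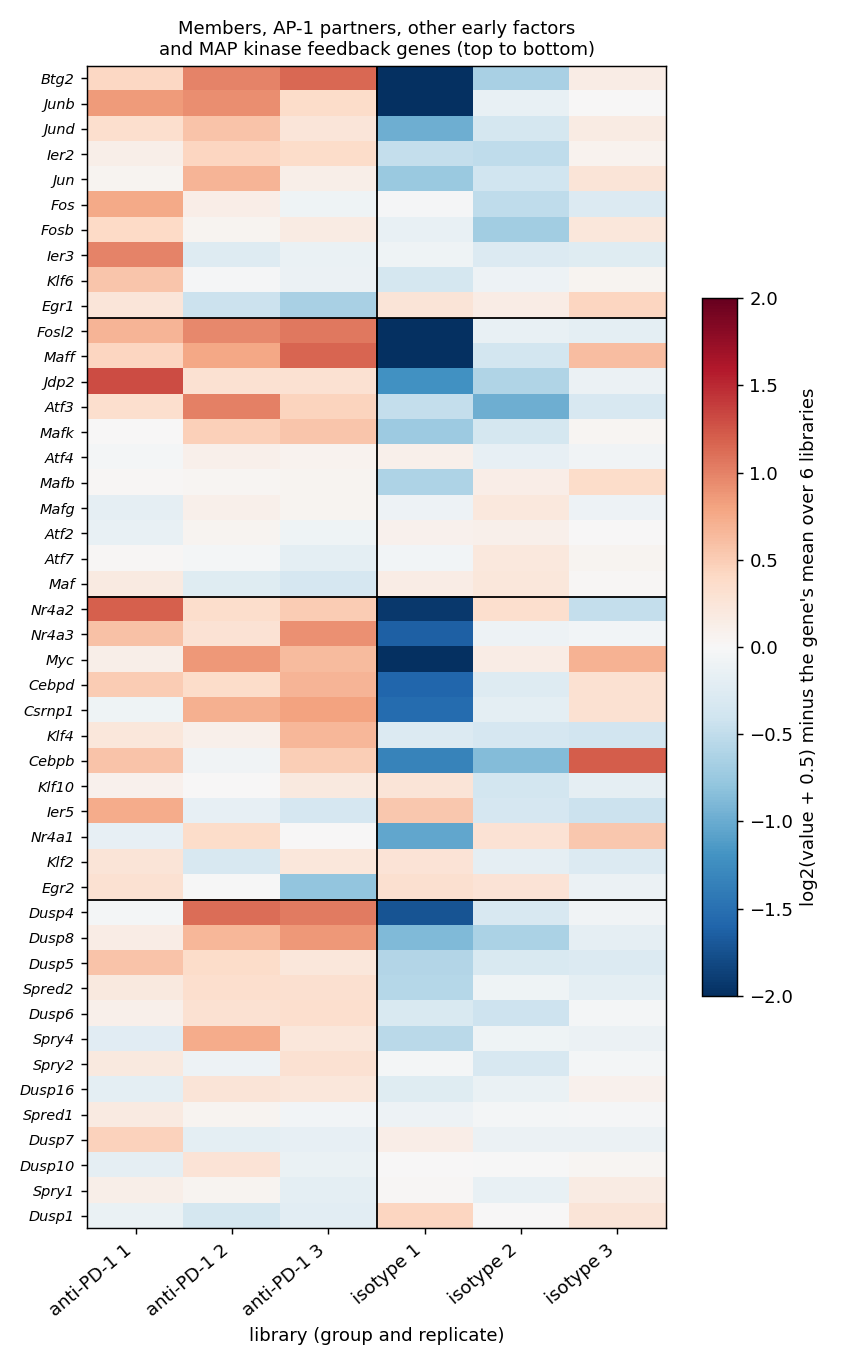
Log2(CPM + 0.5) of each tested gene minus its mean over 6 libraries (colour, limited to -2 and 2), for the 10 members, 11 AP-1 partners, 12 other early transcription factors and 13 MAP kinase feedback genes from top to bottom, each block in order of fold change. Anti-PD-1 libraries are left of the line, and isotype control replicate 1 holds the darkest blue cells, among them Btg2, Junb, Fosl2 and Myc.

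Upstream of these genes lie the MAP kinases. Of 17 tested MAP kinase genes, 0 passed by limma and 0 reached an unadjusted p under 0.05 in either direction, and the median log2 fold change was 0.04, or 0.09 without anti-PD-1 replicate 1. Braf, a kinase at the top of the ERK cascade, had the smallest p of that list, at 53.4, 65.1 and 65.6 CPM after anti-PD-1 and 45.4, 52.3 and 56.3 CPM in controls (limma adjusted p = 0.494). Among 16 tested SRF, TCF and CREB regulators, 0 passed by limma, with 1 higher and 1 lower unadjusted. Srf, the factor that binds the Fos promoter, had 8.26, 8.59 and 8.28 CPM, against 6.91, 6.06 and 7.34 CPM, so its groups did not overlap (log2 fold change 0.29 ± 0.14 SE, limma adjusted p = 0.485). Crem, a cyclic AMP responsive factor, had 24.0, 26.3 and 35.3 CPM, against 18.7, 18.5 and 22.2 CPM (limma adjusted p = 0.343). Creb1, which binds cyclic AMP elements, had 32.2, 21.6 and 23.5 CPM, against 38.7, 36.6 and 28.6 CPM (0.431).

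Feedback genes that damp MAP kinase signalling had 0 of 13 tested genes past the limma threshold, with 5 higher and 1 lower at an unadjusted p under 0.05. Dusp8, a phosphatase for JNK and p38, had 12.8, 18.5 and 21.4 CPM in anti-PD-1 livers, against 5.99, 7.20 and 10 CPM in controls (log2 fold change 1.13 ± 0.24 SE, limma adjusted p = 0.232, DESeq2 0.003). Dusp6, a phosphatase for ERK, had 77.8, 90.4 and 92.3 CPM, against 59.2, 54.7 and 71.0 CPM (limma adjusted p = 0.269, DESeq2 0.034). Spred2, an inhibitor of the RAS to RAF step, had 18.4, 20.4 and 20 CPM, against 10.6, 15.0 and 13.9 CPM (limma adjusted p = 0.269). Dusp1, itself an immediate early gene, lay on the lower side with Egr1, at 37.1, 31.8 and 35.1 CPM after anti-PD-1, against 55.0, 40.9 and 49.0 CPM in controls (limma adjusted p = 0.282). The groups of these 4 genes did not overlap, beside 7.13% of all genes wholly above and 9.98% wholly below the controls. Dusp8, Dusp6 and Spred2 were named for the smallest p of their list, which favours separate groups.

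Downstream, 12 textbook target genes of AP-1 or EGR1 were tested, of which 0 passed by limma, with 0 higher and 1 lower unadjusted, and a median log2 fold change of -0.10. Leaving out anti-PD-1 replicate 1 moved it to -0.36, and leaving out isotype control replicate 1 moved it to -0.17. Ccnd1, the cyclin D1 gene and a target of Jun, had 64.1, 45.7 and 40.5 CPM after anti-PD-1, against 61.1, 74.9 and 89.7 CPM in controls (log2 fold change -0.59 ± 0.20 SE, limma adjusted p = 0.348). Plaur, the urokinase receptor gene, had 4.03, 1.66 and 1.76 CPM, against 1.40, 0.866 and 1.26 CPM (limma adjusted p = 0.449). Heat shock genes, which like immediate early genes respond to tissue handling, all had negative log2 fold changes (11 of 11, median -0.24), with 0 past the limma threshold and 2 lower unadjusted. Hspa1b, an inducible HSP70 gene, had 2.40, 1.07 and 0.931 CPM in anti-PD-1 livers, against 9.50, 6.01 and 3.67 CPM in controls (limma adjusted p = 0.232, DESeq2 0.00453). Hspa1b has a near-identical copy, Hspa1a, and the split of reads between them is uncertain. The part of handling in the members' values was not tested.

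Outside these lists, the 5 genes whose deviations over the 6 libraries were closest to the average of the 10 members, of 9644 genes with a mean of at least 5 CPM, were Actg1, Efhd2, Nedd9, Fam117b and Kdm3a. The measure was the root mean square difference of log2 deviations, from 0.0966 for Actg1 to 0.142 for Kdm3a. Actg1, the gamma-actin gene, had 297, 291 and 290 CPM after anti-PD-1, against 147, 198 and 241 CPM in controls (log2 fold change 0.61, limma adjusted p = 0.28). Nedd9, an adaptor of focal adhesions, had 34.9, 27.3 and 23.6 CPM, against 13.6, 21.5 and 23.1 CPM. Kdm3a, a histone H3 demethylase, had 38.5, 31.6 and 32.7 CPM, against 21.5, 23.9 and 27.6 CPM. None of the 5 passed the limma test (adjusted p = 0.27 to 0.411). The members' average holds their group difference, so the higher values of these 5 genes after anti-PD-1 follow from the choice and are no separate result.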

How the data were processed

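Per the labels' protocols, whole-liver RNA was depleted of ribosomal RNA and made into directional libraries. Tools named, per the submitters' processing notes, are RSEM 1.3.0, Bowtie2, Trimmomatic 0.38 and edgeR, with build GRCm39 and no order given. The authors deposited a normalized signal for each gene in each library. In each library every value (100%) was a whole number of equal steps, within 0.001 step, so reads were recovered, and the geometric mean of the 6 column sums was 1000000, as in CPM of TMM-scaled libraries. Whether the reads are observed or rounded estimates cannot be seen. A limit of 3 reads is 0.144 to 0.2 CPM. Symbols matched 21407 identifiers, and the others held 1.2 to 2.7% of reads.

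Groups came from the sample titles. Genes with at least 1 CPM in at least 3 libraries (13990) were tested two-sided with limma 3.58.1 (intensity trend, R 4.3.3) on log2(CPM + 0.5), which understates changes of low genes, with Benjamini-Hochberg adjustment over all of them and a threshold of 0.05. Exact permutation of 3 against 3 cannot go below p = 0.1. The recovered reads were also tested with edgeR 4.0.16 and DESeq2 1.42.0, and each test was tried on simulated counts. Transcript lengths came from GENCODE M21 (GRCm38), the longest principal coding transcript of each gene. The members, the 17 other gene lists and the tests were chosen with earlier results of these data known. All members are named, with up to 3 genes of smallest p per other list, 7 genes named whatever their values and 5 genes most like the members' average. Per1, the NK cell markers Klrb1c and Ncr1 and the Kupffer cell markers Cd5l and C6 fall outside that rule and were chosen after their values were seen.

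The labels give both groups replicate numbers 1 to 3. Deviations of same-numbered libraries from their group means had weak positive correlations (0.15, 0.13 and 0.25), against -0.22 to 0.06 for libraries of unlike number. Deviations cancel within a group, so higher correlations in some pairs push others down, and the contrast is partly built in. The main test was not paired. By a rule of over 0.1 in every pair, limma was also run with that number as a block, as an alternative. That pairing rests on the same values that the block fit tests, and not on a stated litter or day.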

Additional observations from a re-analysis of the deposited data

How the results depend on the processing

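The alternatives changed the pseudocount (0.1 or 2), the filter (none or 5 CPM), the scaling (no TMM factor, quantile, DESeq2 size factors), the limma settings and the test, added the block, left out each library in turn, or left out both libraries numbered 1. That last setting was added after seeing the data. The count of members past the adjusted threshold was 0 in each, and the lowest adjusted p of a member was 0.0645, for Btg2 without both libraries numbered 1. The direction of the members held in 186 of 187 refits, and the exception was Klf6, which ranged from -0.05 without both libraries numbered 1 to 0.39 without anti-PD-1 replicate 3. The median of the 10 fold changes ranged from 0.44 to 0.71, and leaving out 1 library at a time gave 0.47 to 0.71. The members without overlap between groups numbered 4 under each filter and scaling. Without isotype control replicate 1 they numbered 5, all higher, where 12.1% of all genes lay wholly above the controls. No scaling moved the median of all genes by 0.1 or more.

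The count of all genes called was 1 in the main test, 0 by edgeR, 261 by DESeq2 (151 higher, 110 lower) and 133 without both libraries numbered 1. It was 0 to 30 with 1 library left out: 0 when anti-PD-1 replicate 3 was left out, 2 for isotype control replicate 2 and 30 for anti-PD-1 replicate 1. The replicate block, whose pairing rests on the values alone, gave 40 (27 higher, 13 lower) and changed no call among the members. The cause of these shifts was not tested. Without anti-PD-1 replicate 2, only Ier2 and Btg2 of the members had an unadjusted p under 0.05 (both higher, against 653 of 13990 genes), and Egr1 lost it under several settings, edgeR and DESeq2 among them. Depth limits Fosb and Ier3, with 8 to 64 reads per library.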

Other observations

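The ratio of Junb to Jun CPM, picked after its values were seen, was 1.14, 0.780 and 0.780 in anti-PD-1 livers, against 0.270, 0.777 and 0.555 in isotype control livers. Anti-PD-1 replicates 2 and 3 and isotype control replicate 2 thus had nearly the same ratio, and the low control value came from isotype control replicate 1.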
